A study of Mus musculus with 2 samples.

Results

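Nascent transcription of 10 genes for scavenger receptors, receptors of apoptotic cells and a ligand that links them was compared between unstimulated mouse bone marrow-derived macrophages (BMDMs) and BMDMs exposed to IL-4. The genes were taken by name, Msr1, Cd36, Mertk, Axl, Stab1, Marco, Scarb1, Cd163, Gas6 and Cd68, and every called transcript that carried 1 of these names was kept. They had 95 of the 43122 transcripts called in the control library (9 of the 10 genes) and 59 of the 51365 called after IL-4 (7 of the 10 genes). Both libraries came from WT mice of 8 to 12 weeks of age. Bone marrow cells were grown for 6 days in L929 supernatant, a source of the macrophage growth factor MCSF, and were then left without IL-4 or given 20 ng/ml of it for 1 hr. Global run-on sequencing (GRO-seq) extends engaged RNA polymerases in isolated nuclei with a bromine-labelled nucleotide, so that the RNA sequenced is the RNA being made at that moment. The duplicate run-on reactions of each condition were pooled into 1 library, so nothing below has a replicate (n = 1 per condition), no test was possible and no p-value is given.

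Macrophages clear dying cells and modified lipoproteins through scavenger receptors, a mixed group of membrane proteins that bind polyanionic ligands, oxidized lipids and debris. The TAM receptor tyrosine kinases recognize apoptotic cells indirectly, through bridging proteins such as Gas6 that bind phosphatidylserine exposed on the dying cell. IL-4 signals through STAT6 and drives alternative polarization, a state in which uptake and disposal of cells and lipids are prominent functions.

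The files listed each called transcript, a stretch of nascent RNA on 1 strand, with its position on mm10 (GRCm38) and a score printed to 1 decimal. How the score was scaled was not given in the sources used here, and the sequencing depth is unknown. The control library had shorter transcripts with higher scores (median length 227 bp, median score 0.3) than the IL-4 library (312 bp and 0.2). Ratios of IL-4 over control were therefore centred on the median gene, and a gene was counted as lower or higher when its centred ratio was at least 2-fold. The rounding of the scores allows a range of ratios, given here as the rounding range or as limits within rounding, which is not a replicate error. All 8 macrophage markers examined, Cd68 among them, had a transcript on their own strand in both libraries. None of the 3 T cell, 3 B cell, 3 fibroblast and 3 dendritic cell markers had such a transcript in either library. Of 4 granulocyte markers, S100a8 had transcripts in both (summed score times length 103.3 bp over 338 covered bp in control and 255.8 bp over 1044 covered bp after IL-4), and Mpo had 1 transcript in the control library. Their part in the results was not tested. In such bulk libraries fewer cells making an RNA and less RNA made per cell cannot be told apart.

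The 250 bases upstream of the annotated start are shown for the 4 members with the most nascent RNA per kb of gene, since GRO-seq reads the output of these promoters. The sequences are those of RefSeq on GRCm38.p6, written 5′ to 3′ on the gene's strand, and 8 of the 10 members were in that table. Capitals mark matches to 3 short motifs searched on both strands: the core of the site of PU.1, the macrophage lineage-determining factor (GAGGAA), the AP-1 site (TGANTCA) and the GC box bound by Sp1-type factors (GGGCGG). The stretches lie at chr14:31168642-31168891 (minus strand, Stab1), chr11:69666171-69666420 (minus strand, Cd68), chr8:13494536-13494785 (minus strand, Gas6) and chr2:128698665-128698914 (plus strand, Mertk).
Stab1: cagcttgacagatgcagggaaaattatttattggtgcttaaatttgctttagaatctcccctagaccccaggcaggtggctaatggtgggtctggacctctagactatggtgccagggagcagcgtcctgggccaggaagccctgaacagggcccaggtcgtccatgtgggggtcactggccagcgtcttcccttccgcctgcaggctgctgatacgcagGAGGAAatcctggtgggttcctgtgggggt
Cd68: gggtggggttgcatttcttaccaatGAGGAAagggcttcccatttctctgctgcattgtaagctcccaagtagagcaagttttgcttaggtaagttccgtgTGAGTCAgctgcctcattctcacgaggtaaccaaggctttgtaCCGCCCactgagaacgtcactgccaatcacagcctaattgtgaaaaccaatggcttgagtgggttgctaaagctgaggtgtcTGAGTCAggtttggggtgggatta
Gas6: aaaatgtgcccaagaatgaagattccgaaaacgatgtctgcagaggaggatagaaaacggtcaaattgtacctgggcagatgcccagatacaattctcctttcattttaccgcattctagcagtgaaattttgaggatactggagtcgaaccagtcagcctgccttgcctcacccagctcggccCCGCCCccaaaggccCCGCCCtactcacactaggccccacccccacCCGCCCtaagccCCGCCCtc
Mertk: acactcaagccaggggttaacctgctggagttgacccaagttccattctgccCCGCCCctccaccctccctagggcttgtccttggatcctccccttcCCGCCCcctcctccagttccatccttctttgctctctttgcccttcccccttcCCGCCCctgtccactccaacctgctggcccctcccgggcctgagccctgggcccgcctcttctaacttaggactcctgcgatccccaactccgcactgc

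The Stab1 stretch held 1 PU.1 core, 30 to 25 bases before the start, and no GC box. That of Cd68 held 1 PU.1 core, 1 GC box and both AP-1 matches found among the members, 149 to 143 and 24 to 18 bases before the start. Gas6 had 4 GC boxes within its last 66 bases and Mertk had 3 between 198 and 94 bases before its start. Over the 8 members in the table, 4 had a PU.1 core, 5 a GC box and 1 an AP-1 site, whereas 23.3%, 32.7% and 6.75% of all 32851 promoters of this length did. The palindrome with 4 spacer bases that STAT6 prefers (TTCNNNNGAA) was in 5.85% of all promoters, and the form with 3 spacer bases (TTCNNNGAA) was in 7.02%. Neither was found in the window of any of the 8 members. A match describes letters only, and distal enhancers were not searched.

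The 10 members were compared in 3 ways, by the highest score among transcripts carrying the name, by the highest score among transcripts lying on the gene's own strand inside its annotated body, and by the sum of score times length over those transcripts. The name in the files is that of the nearest promoter, so transcripts of a neighbour can carry a member's name and transcripts inside a member can carry a neighbour's. By name, 7 members had a value in both libraries. Scarb1 was at least 2-fold lower after IL-4 and no member was 2-fold higher, where 8.62% of the 8879 genes with both values were 2-fold lower and 8.06% were 2-fold higher. The median centred log2 ratio of the 7 members was −0.21, against 0 for all genes by construction, and the median gene itself was 0.38 lower on the log2 scale before centring. Counted on the gene's own strand by summed score times length, 4 of the 7 members with a value in both libraries were at least 2-fold lower (Scarb1, Stab1, Axl and Gas6) and none was higher. The limits within rounding cross 2-fold for Axl and Gas6 and lie wholly beyond it for Scarb1 and Stab1. Transcripts were called separately in each library, so these sums move with the length that was called as well as with the scores. In that measure 16.8% of 7196 genes were 2-fold lower and 16.6% were 2-fold higher. The median of the 7 members was then −1.38, and all 7 lay below the median gene, although the rounding range of Mertk crossed 0. By the highest score on the gene's strand 5 of 7 lay below it, and Cd36 and Mertk lay above.

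**Figure D1:**
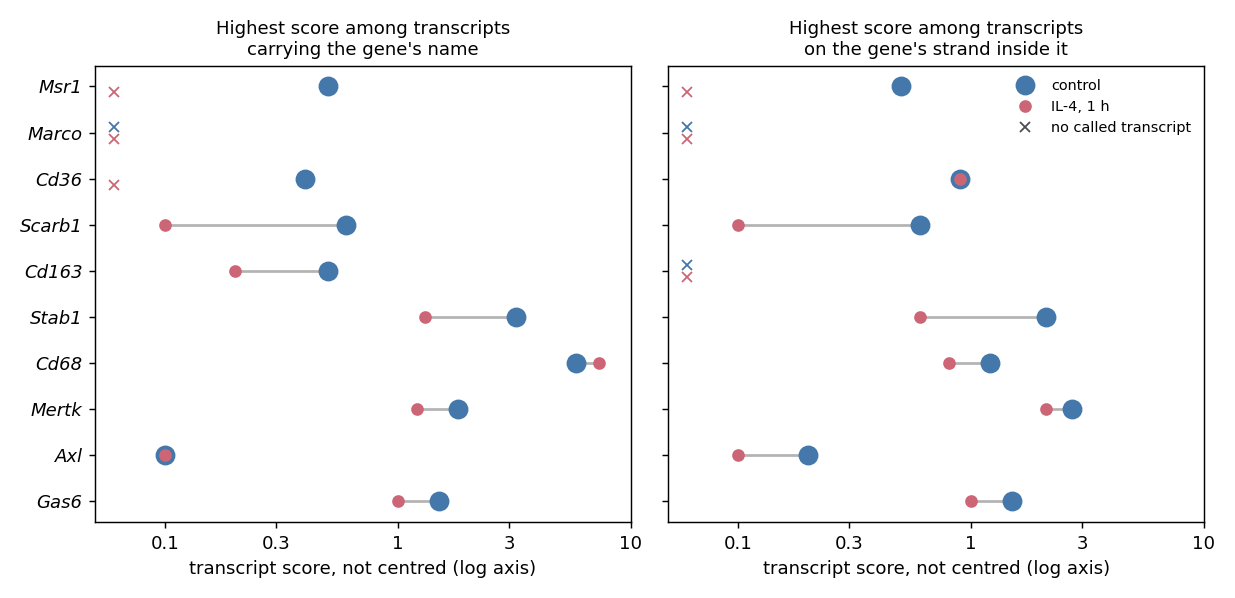
Highest transcript score of each of the 10 members in the control library (large blue circles) and after 1 hr of IL-4 (small red circles) on a log axis, by gene name (left) and inside the gene on its own strand (right), with crosses where no transcript was called. The scores are not centred. Stab1, Scarb1, Mertk and Gas6 were lower after IL-4 in both panels, whereas Cd68 was higher by name (5.8 and 7.3) and lower inside its own gene (1.2 and 0.8). Centred on the median gene, the log2 ratio of Mertk inside its gene was 0.05.

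Among the class A scavenger receptors, trimeric proteins that bind modified lipoproteins and bacteria, little nascent RNA was called. Msr1 (ENSMUSG00000025044.16, chr8:39581685-39642673, minus strand) had 2 transcripts in the control library, both in intron 3 with a score of 0.5, at chr8:39625992-39626072 and chr8:39629402-39629466. No Msr1 transcript was called after IL-4. Marco (ENSMUSG00000026390.7, chr1:120474538-120505024, minus strand) had none in either library. Of all control transcripts with a score of 0.5, 20.5% had no counterpart after IL-4. A gene without a called transcript may still be transcribed at a level that was not called.

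The class B receptors, which take up oxidized lipoproteins, fatty acids and high-density lipoprotein, both had fewer called transcripts on their strand after IL-4. Cd36 (ENSMUSG00000002944.15, chr5:17781690-17888801, minus strand) had a transcript of its name only in control, in intron 3 at chr5:17824758-17824902 with a score of 0.4. Its 3′ UTR in exon 15 held a transcript named for the microRNA gene Mir5109 in both libraries, 52 bp long in control and 104 bp long after IL-4, with a score of 0.9 in each. The centred log2 ratio of the summed score times length was −0.28 (−0.49 to −0.06 within rounding), from 104.8 bp over 197 covered bp in control and 93.6 bp over 104 covered bp after IL-4. By the highest score on its strand, 0.9 in each library, Cd36 pointed the other way (0.42, 0.25 to 0.58 within rounding). After IL-4 both of these measures rest on the transcript named for Mir5109 alone.

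Scarb1, the receptor of high-density lipoprotein (ENSMUSG00000037936.15, chr5:125277087-125341094, minus strand), was the member with the lowest ratio in each of the 3 measures. In control it had 9 transcripts with scores of 0.1 to 0.6, from the 5′ UTR in exon 1 to intron 11. After IL-4 a lone transcript was called, at the 5′ end in exon 1 (chr5:125340638-125341040) with a score of 0.1, where the overlapping control transcript (chr5:125340839-125341041) had 0.3. The highest score thus went from 0.6 to 0.1, or −2.21 as a centred log2 ratio with a rounding range of −3.32 to −1.50. The control transcript with the score of 0.6 lay in an A-rich stretch of low complexity in intron 11. Without transcripts in simple repeats and low-complexity sequence the ratio was −1.26. Covered length went from 2316 to 403 bp, the mean score over it from 0.25 to 0.1 and the summed score times length from 574.9 to 40.3 bp (−3.95, −5.22 to −3.04 within rounding). The other 8 of the 9 control transcripts had no counterpart. Over all genes, 65.2% of control transcripts with a score of 0.1, 50.9% with 0.2 and 34.9% with 0.3 had none.

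Cd163 encodes the haemoglobin-haptoglobin scavenger receptor (ENSMUSG00000008845.9, chr6:124304656-124330527, plus strand). It had no transcript on its own strand in either library. The values under its name came from the opposite strand, a 138 bp transcript in intron 8 with a score of 0.5 in control (chr6:124318492-124318629) and 0.2 after IL-4 (chr6:124318501-124318638). The centred log2 ratio of that antisense transcript was −0.94, with a rounding range of −1.50 to −0.47 that crosses the 2-fold limit. It gives no value for synthesis of Cd163 mRNA.

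Cd68, the lysosomal glycoprotein used as a pan-macrophage marker, showed opposite directions by name and inside the gene (ENSMUSG00000018774.13, chr11:69664213-69666153, minus strand). By name the highest score was 5.8 in control and 7.3 after IL-4 (centred log2 ratio 0.71, 0.69 to 0.73 within rounding). Both of these transcripts lay outside Cd68, in intron 5 of the upstream gene Eif4a1, a translation initiation factor, at chr11:69668703-69668990 and chr11:69668631-69668989. The transcript at the 5′ end of Cd68 itself had a score of 1.2 over 740 bp in control (chr11:69665398-69666137) and of 0.8 over 1121 bp after IL-4 (chr11:69665017-69666137). A further control transcript of 487 bp near the 3′ end of the gene had a score of 0.2. The summed score times length was 985.4 bp over 1227 covered bp in control and 896.8 bp over 1121 covered bp after IL-4, or −0.25 as a centred log2 ratio (−0.43 to −0.07 within rounding). Cd68 was thus within 2-fold of the median gene in each of the 3 measures. With the named transcript closest to the start, the ratio was 2.00 on the log2 scale, but this set an antisense control transcript (score 0.2) against the sense transcript after IL-4 (0.8).

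Stab1, a multidomain endocytic receptor that binds acetylated lipoprotein, the matrix protein SPARC and phosphatidylserine on dying cells (ENSMUSG00000042286.13, chr14:31139013-31168641, minus strand), had the most nascent RNA of the 10 genes in control. On its strand 34 transcripts with scores of 0.2 to 2.1 covered 59.6% of the 29.6 kb gene in control. After IL-4 there were 25 transcripts with scores of 0.1 to 0.6, and they covered 30.6% of the gene. The ranges of scores overlapped between 0.2 and 0.6. Of the control transcripts 22 had a counterpart and all 22 had a lower score after IL-4, where 54.3% of all 26998 paired control transcripts were lower. Here and below, that share covers control transcripts of every score, also those at the lowest printed ones, and was not matched to the scores of the members. The median log2 ratio of these 22 pairs was −1.95, not centred, against −0.32 over all pairs. Covered length went from 17659 to 9064 bp, the mean score over it from 0.92 to 0.26 and the summed score times length from 16260.2 to 2312.9 bp. The centred log2 ratio of that sum was −2.93, with a rounding range of −3.32 to −2.59.

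The lower scores were found along the whole of Stab1. The transcript at the 5′ end had a score of 1.6 in control (chr14:31167882-31168601, annotated to intron 1) and of 0.5 after IL-4 (chr14:31168234-31168618, annotated to exon 1). In control 4 transcripts with scores of 0.4 to 0.7 followed, centred 1835 to 3673 bases from the start, and none of the 4 had a counterpart. Over the whole gene 12 of 34 control transcripts (35.3%), with scores of 0.2 to 1.2, had none, where 37.4% of all control transcripts had none. That share of all transcripts was 65.2% at a score of 0.1, 20.5% at 0.5 and 3.67% at 1 or more. It was not matched to the scores of Stab1. On the log2 scale the largest drop in a pair was at chr14:31158140-31158406 in intron 18, from 2.1 to 0.1. The smallest was at chr14:31144967-31145447, from 0.5 to 0.3. With the gene divided into 3 equal parts from the 5′ end, the summed score times length went from 3914.7 to 554.3 bp, from 6001.8 to 567.3 bp and from 6343.7 to 1191.3 bp. The covered lengths were 4564 and 2590 bp, 6974 and 3223 bp, and 6121 and 3251 bp. The centred log2 ratios of the 3 parts were −2.94, −3.52 and −2.53. The 5′ transcript stood above the mean of the remaining transcripts by 1.79 times in control and 2.05 times after IL-4. Transcripts inside 1 gene share its polymerases and are not replicates of each other.

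By name, the ratio of Stab1 was smaller, and the highest score under its name lay in a neighbour. Of the 33 control and 28 IL-4 transcripts named Stab1, 20 and 15 were inside the gene on its strand. The highest, 3.2 in control (chr14:31177268-31177602) and 1.3 after IL-4 (chr14:31176969-31177595), were in exon 16 of Nisch, the adjacent upstream gene on the same strand that encodes the imidazoline receptor nischarin. Together these values correspond to −0.92 as a centred log2 ratio (−1.0 to −0.84 within rounding). Conversely, 14 control and 10 IL-4 transcripts inside Stab1 carried the name of the downstream gene Nt5dc2. Inside Stab1 the highest scores were 2.1 and 0.6, or −1.39 as a centred log2 ratio (−1.55 to −1.24 within rounding). Nisch as a whole went from 4513.6 bp over 6589 covered bp to 3210.3 bp over 7939 covered bp, or −0.61 as a centred log2 ratio. Transcription of Nisch runs towards Stab1, and its part in the signal over Stab1 was not tested.

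**Figure D2:**
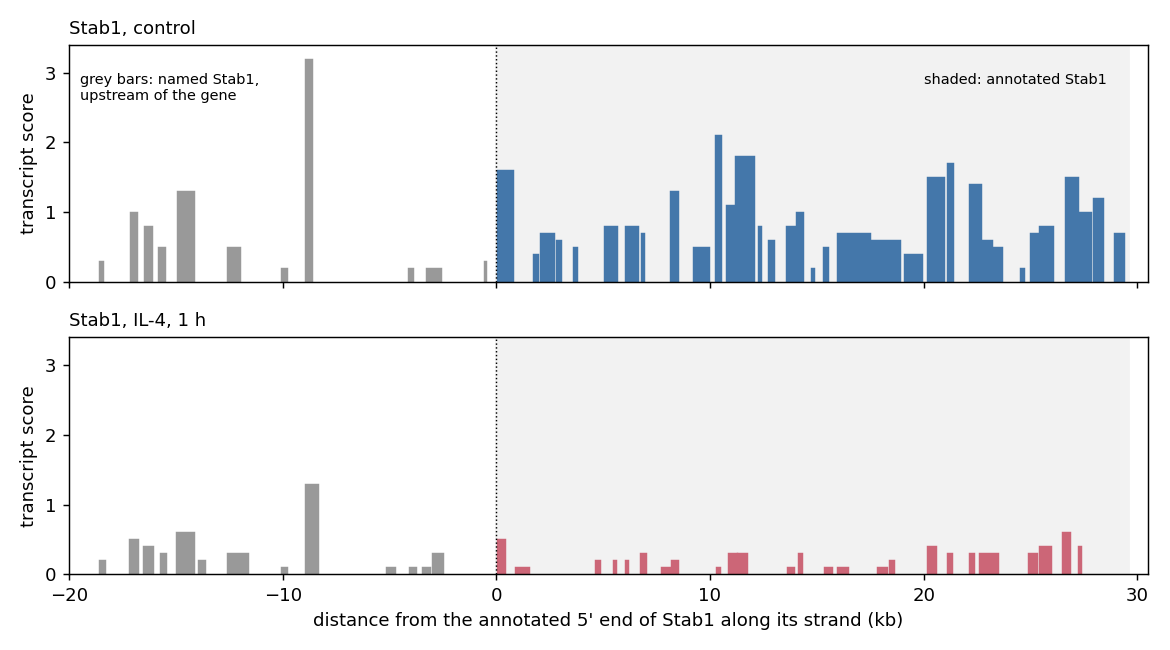
Score of each called transcript on the Stab1 strand (y axis, bar width to scale) against the distance in kb from the annotated 5′ end of Stab1, in the control library (top, blue) and after 1 hr of IL-4 (bottom, red), with transcripts that carry the name Stab1 upstream of the gene in grey. Inside the shaded gene the scores reached 2.1 in control and 0.6 after IL-4, and fewer bases were covered after IL-4.

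Of the TAM receptors, Mertk, the main kinase receptor for apoptotic cells on resting macrophages (ENSMUSG00000014361.5, chr2:128698956-128802894, plus strand), was within 2-fold of the median gene in each of the 3 measures. The name was carried by 21 control and 16 IL-4 transcripts. On the strand of the gene lay 41 control transcripts scoring 0.1 to 2.7 and 34 IL-4 transcripts scoring 0.1 to 2.1. The difference came from the 3′ part of the 103.9 kb gene, where 20 control and 18 IL-4 transcripts were named for the downstream gene Tmem87b. The promoter transcript had a score of 0.9 in control (chr2:128698875-128699109) and 0.6 after IL-4 (chr2:128698838-128699232). The highest score by name was 1.8 and 1.2, in intron 1 at chr2:128703372-128703486 and chr2:128703389-128703489, or −0.21 as a centred log2 ratio (−0.31 to −0.11 within rounding). The highest on the strand, 2.7 and 2.1, lay in a simple repeat in intron 15 at chr2:128785798-128785977 and chr2:128785744-128785978, with a ratio of 0.05.

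Scores and covered length of Mertk moved in opposite directions. So did the medians over all transcripts, with scores of 0.3 and 0.2 and lengths of 227 and 312 bp in control and after IL-4. Of its 27 paired control transcripts 21 were lower after IL-4, 6 were equal and none was higher, with a median log2 ratio of −0.58, not centred (54.3% of all pairs were lower, with a median of −0.32). The covered length went from 8958 to 13705 bp, and the mean score over it went from 0.40 to 0.27. The summed score times length, 3620.2 bp in control, was 3639.6 bp in the IL-4 library, or −0.11 as a centred log2 ratio (−0.58 to 0.33 within rounding). From the 5′ end, the centred log2 ratios of the 3 equal parts of the gene were −0.40, −0.19 and 0.15. The sums went from 1336.5 bp over 3693 covered bp to 1101.2 bp over 4850, from 826.9 bp over 1905 to 783.7 bp over 3828, and from 1456.8 bp over 3360 to 1754.7 bp over 5027.

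Axl, the TAM kinase known for its induction in inflamed tissue, was barely called (ENSMUSG00000002602.16, chr7:25757273-25788705, minus strand). By name it had 1 transcript per library, both with a score of 0.1, in a simple repeat of intron 4 in control (chr7:25785226-25785496) and in intron 1 after IL-4 (chr7:25787775-25788142). The centred log2 ratio of 0.38 had a rounding range of −1.21 to 1.96 and so gave no direction. On its strand there were 5 control transcripts with scores of 0.1 and 0.2, of which 4 carried the name of the downstream gene Hnrnpul1, and none of the 5 overlapped the IL-4 transcript. The summed score times length went from 151.0 bp over 1000 covered bp to 36.8 bp over 368 covered bp, or −2.15 as a centred log2 ratio (−3.57 to −0.99 within rounding, which crosses the 2-fold limit). The sums come from stretches of the gene that do not overlap between the libraries, so this ratio does not compare the same bases. Of all control transcripts with a score of 0.1, 65.2% had no counterpart, and of those with 0.2, 50.9%.

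Gas6, the vitamin K-dependent ligand that bridges phosphatidylserine to the TAM kinases (ENSMUSG00000031451.6, chr8:13465374-13494490, minus strand), went from 22 transcripts in control to 7 after IL-4. Of the 22, 15 had no counterpart. The highest score, in the 3′ UTR in exon 15, was 1.5 in control (chr8:13465492-13465828) and 1.0 after IL-4 (chr8:13465346-13465826), or −0.21 as a centred log2 ratio (−0.33 to −0.09 within rounding). At the 5′ UTR in exon 1 the score was 0.3 in control (chr8:13494288-13494504) and 0.4 after IL-4 (chr8:13494259-13494511), the only higher pair among transcripts on a member's own strand inside it. Taken from this 5′ transcript, the centred log2 ratio of Gas6 was 0.41. The other 6 of the 7 pairs were lower. Between these ends, the 20 control transcripts had scores of 0.1 to 0.6, whereas the 5 transcripts called there after IL-4 had 0.1 each.

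Over the whole of Gas6 the covered length went from 5963 to 2551 bp, the mean score over it from 0.31 to 0.30 and the summed score times length from 1833.9 to 763.9 bp. The centred log2 ratio of that sum was −1.38 (−1.86 to −0.90 within rounding, which crosses the 2-fold limit). That of the mean score over covered bases, a measure added after seeing the data, was 0.39 and pointed the other way. The 2 end transcripts, with scores of 1.0 over 481 bp and 0.4 over 253 bp, entered the mean after IL-4, while 6 of the 7 pairs were lower, with a median log2 ratio of −1.0, not centred. In the 3 equal parts from the 5′ end the centred log2 ratios were −1.76, −3.67 and −0.78. The sums behind them went from 685.7 bp over 2772 covered bp to 218.7 bp over 1428, from 329.6 bp over 1667 to 28.0 bp over 280, and from 818.6 bp over 1524 to 517.2 bp over 843. The middle part held 7 control transcripts and 1 after IL-4. Of control transcripts with a score of 0.2, the most frequent score in the body of Gas6, 50.9% over all genes had no counterpart.

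**Figure D3:**
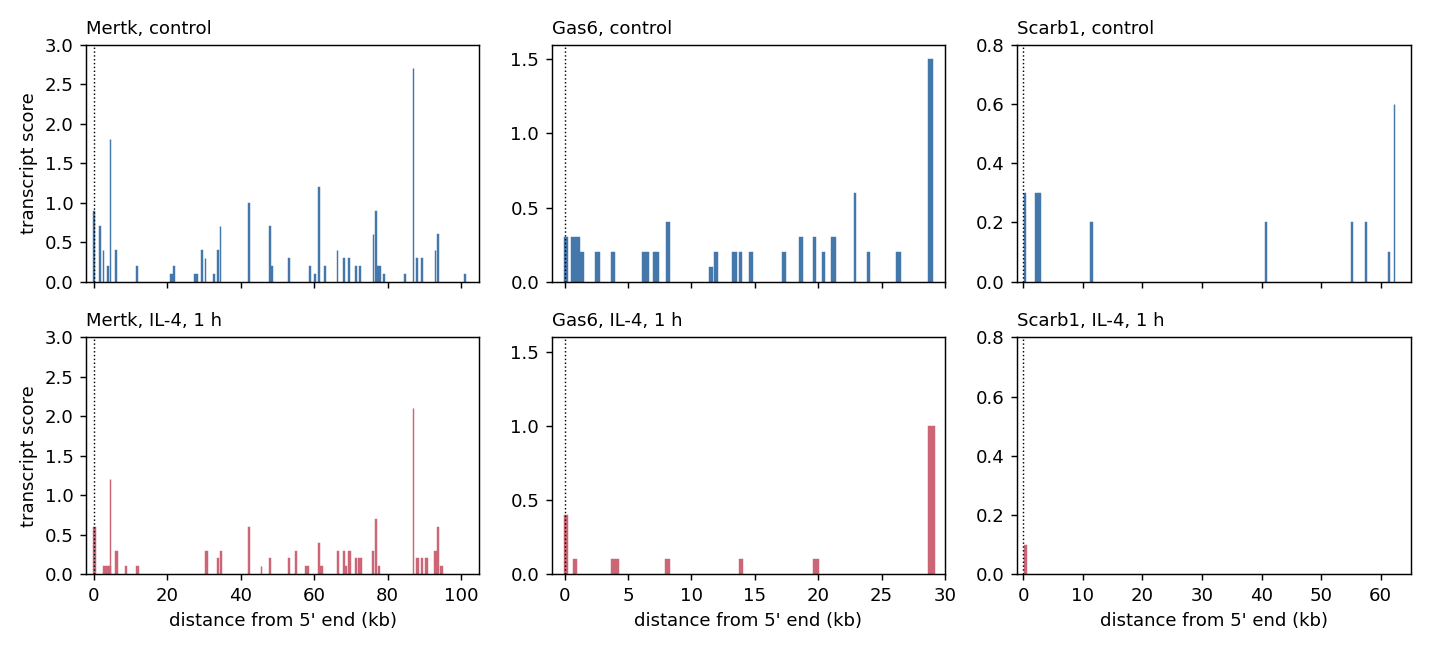
Score of each called transcript on the gene's strand (y axis, scale differs between genes, bar width to scale) against the distance in kb from the annotated 5′ end, for Mertk, Gas6 and Scarb1 in the control library (top, blue) and after 1 hr of IL-4 (bottom, red). Mertk kept transcripts along its length (41 and 34), Gas6 had fewer transcripts after IL-4 (22 and 7), with scores above 0.1 only at its ends, and Scarb1 kept 1 of 9 positions, at the 5′ end.

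Taking the members by nascent RNA per length, as summed score times length per kb of gene and not centred, the order in control was Stab1 (549), Cd68 (508), Gas6 (63.0), Mertk (34.8), Scarb1 (8.98), Axl (4.80), Msr1 (1.2) and Cd36 (0.98). After IL-4 it was Cd68 (462), Stab1 (78.1), Mertk (35.0), Gas6 (26.2), Axl (1.17), Cd36 (0.87) and Scarb1 (0.63). Stab1 and Cd68 exchanged places at the top, and so did Mertk and Gas6. With 1 library per condition there is no spread by which to tell neighbours in these orders apart. Over all members, 58 of 117 control transcripts on the gene's strand (49.6%) had no counterpart after IL-4, where 37.4% of all control transcripts had none. The share of all transcripts was not matched to the scores of the members. Of the members' 59 paired transcripts 51 were lower, 7 were equal and 1 was higher, where 54.3% of all pairs were lower. Of the 51, 22 were in Stab1 and 21 in Mertk.

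**Figure D4:**
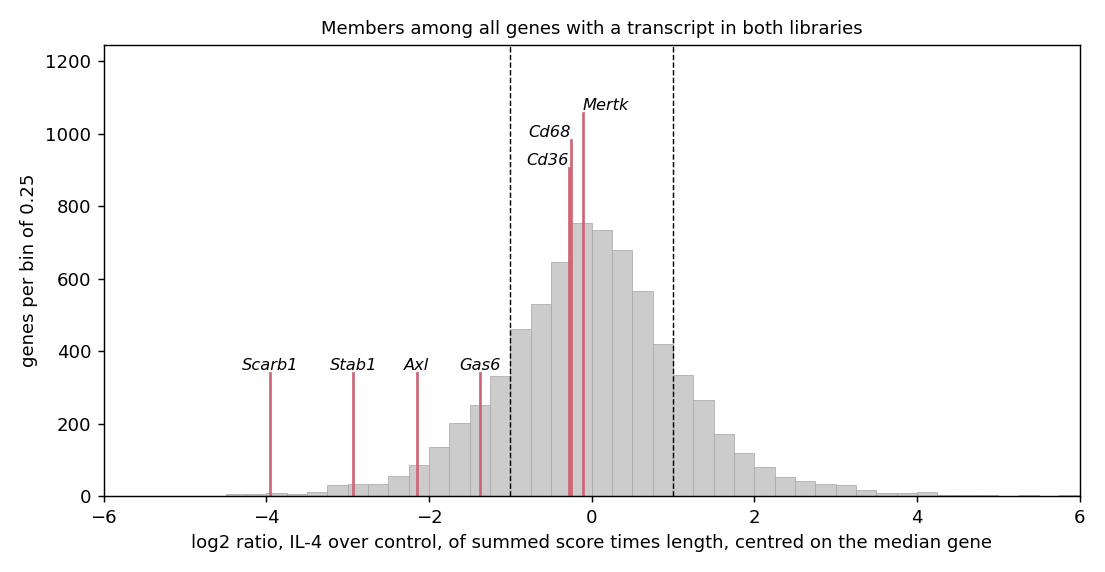
Histogram of the centred log2 ratio (IL-4 over control) of summed score times length for the 7196 genes with a transcript on their own strand in both libraries (grey, bins of 0.25, y axis in genes, 2 genes beyond the x axis not drawn), with the 7 members as red lines whose height has no meaning and dashed lines at 2-fold. Scarb1 (−3.95), Stab1 (−2.93), Axl (−2.15) and Gas6 (−1.38) lay beyond the lower limit, and Cd36, Cd68 and Mertk lay between −0.28 and −0.11.

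A list of 48 further genes of scavenging and apoptotic cell clearance was examined in the same way. By name 31 had a value in both libraries, of which 5 were at least 2-fold lower and 3 at least 2-fold higher (8.62% and 8.06% of all genes), with a median centred log2 ratio of −0.04. By summed score times length on the gene's strand 31 had a value in both, of which 10 were lower and 2 higher (16.8% and 16.6% of all genes), with a median of −0.38, and 15 genes had no transcript on their strand in either library. Of the 12 further scavenger receptors 4 had transcripts in both libraries and all 4 were at least 2-fold lower in that measure, against 16.8% of all genes. By name 3 of the 12 had a value in both, of which 2 were lower, with rounding ranges that crossed the 2-fold limit. The third, Scarf1, chosen for mention after its values were seen, pointed in opposite directions, with a highest score by name of 0.6 and 0.8 (centred log2 ratio 0.79) and a sum of 118.4 bp over 354 covered bp and 41.6 bp over 52 (−1.62). By summed score times length, 11 of the 12 engulfment signalling genes had a value in both, of which 1 was lower and none was higher. Of the 10 eat-me and opsonin genes 9 had one, of which 3 were lower and none was higher. Of the 10 other receptors of apoptotic cells 6 had one, of which 2 were lower and 2 higher. Of the 4 genes in the group of TAM kinase and bridging ligands 1 had one, within 2-fold.

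By name, 4 of these genes were at least 2-fold apart over the whole rounding range. Itgav, the integrin chain that binds apoptotic cells through the bridging protein Mfge8, went from 1.1 to 3.1 (centred log2 ratio 1.87, 1.79 to 1.96 within rounding). Cd300lf, an inhibitory and phosphatidylserine-binding immune receptor, went from 0.4 to 1.0 (1.70, 1.46 to 1.96), with 2 transcripts on its strand in control and 12 after IL-4. Calr, which encodes the eat-me signal calreticulin, went from 0.7 to 1.4 (1.38, 1.23 to 1.54). Syk, the kinase downstream of activating phagocytic receptors, went from 3.9 to 0.7 (−2.10, −2.22 to −1.98). By summed score times length the 4 genes had centred log2 ratios of 1.32 (Itgav, 470.7 bp over 645 covered bp and 1271.4 bp over 2963), 3.59 (Cd300lf, 112.2 bp over 344 and 1465.1 bp over 4537), 0.30 (Calr, 562.7 bp over 1116 and 751.1 bp over 1395) and −1.25 (Syk, 4653.8 bp over 9613 and 2117.8 bp over 9256). Calr was thus within 2-fold in that measure.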

How the data were processed

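GRO-seq transcripts of 1 control and 1 IL-4 library of mouse BMDMs were analysed. The treatment label gave each library its group. Per the labels, the duplicate run-on reactions of a condition were pooled, and about 100 ng of nascent RNA was used per library. The authors aligned the reads with BWA to mm10 at default settings, removed regions on the ENCODE blacklist and called transcripts in each library with HOMER. The submitters' processing notes name BWA 0.7.10, SAMtools 0.1.19 and HOMER 4.2. The deposited value is a score per transcript, rounded by the authors to 1 decimal, and its scaling is not given in the sources used here. Read counts and depth were not analysed here, and precision is therefore given only as the range that rounding (0.05 on either side) allows.

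All transcripts were kept. A gene's value was the highest score among transcripts carrying its name. Same-strand values used transcripts overlapping by at least 1 bp the gene body of GENCODE M21 (21897 protein-coding genes with a unique symbol). Log2 ratios, without a pseudocount, were centred on the median over genes, and 2-fold was the limit for a change. A control transcript was paired with the IL-4 transcript of largest same-strand overlap. The ratio by name was tested on simulated scores, for genes with a control score of at least 1. The overlap values were tested on 1 constructed gene, and the calling of transcripts was not simulated. The calculations used Python 3.11.15, numpy 2.4.6, pandas 2.3.3 and matplotlib 3.10.9.

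All members were named, and of the 48 further genes those at least 2-fold apart over the whole rounding range. Neighbouring genes were named where a transcript of a member carried their name or lay in them. Members, lists and tests were chosen with earlier results of these data known, and the list counts are not independent support. The alternatives tried were other gene values (sum of scores, transcript nearest the TSS, same-strand overlap), filters on repeats and on scores under 0.3, no centring, log2(score + 0.1), the end of the rounding range nearest no change and missing values set to 0.1. The median of paired transcripts and the mean score over covered bases were added after seeing the data.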

Additional observations from a re-analysis of the deposited data

How the results depend on the processing

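The counts and medians of the members depended on the definition of a gene's value. Against 1 member at least 2-fold lower by the highest score under the name, there were 4 by the sum of scores, 4 by summed score times length, 4 with missing values set to 0.1, 3 by the transcript nearest the TSS, 3 without centring, 2 by the highest score on the gene's strand, 2 without repeats, 2 by the median of paired transcripts and 0 with scores of at least 0.3. Against 0 members higher, there was 1 by the transcript nearest the TSS and 1 by the mean score over covered bases. The members with a value in both libraries differed between these settings. With scores of at least 0.3 only Stab1, Cd68, Mertk and Gas6 had one, so Scarb1 could not be counted there. Of all genes, 8.62% were 2-fold lower by the highest score under the name and 16.8% by summed score times length. The shares of all genes under the other settings were not computed, so those counts are not a result about the members. Without centring, the median gene itself lay at −0.38. The median ratio, −0.21, was −1.03 by the sum of scores, −1.38 by summed score times length, −0.98 with missing values set, −0.62 without repeats, −0.58 by the transcript nearest the TSS and without centring, −0.47 over paired transcripts, −0.26 with scores of at least 0.3 and −0.11 at the end of the rounding range nearest no change. It was below 0 in each. Msr1 (0.5) and Cd36 (0.4) had a score under their name in control only. Setting missing values to 0.1 therefore made both of them at least 2-fold lower by construction, which entered the count of 4 and the median of −0.98. With scores of at least 0.3, 61 control and 25 IL-4 transcripts carried a member's name. Of the 48 further genes, 10 were lower by summed score times length and 3 with scores of at least 0.3, against 5. The cause of these differences was not tested.

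Stab1 was below 0 in 11 of 11 alternatives (−2.93 to −0.84) and Scarb1 in 10 of 10 (−4.30 to −0.88). With scores of at least 0.3 Scarb1 had no value. The alternatives share values and are not separate support. Those on repeats, score limit, centring, log2(score + 0.1) and rounding kept the highest score under the name. For Stab1 that score lay in Nisch and for Cd68 in Eif4a1, and the sum of scores by name included such transcripts. From transcripts inside Stab1 the ratios were −2.93 to −1.39. Mertk lay between −0.68 and 0.05, Gas6 between −1.53 and 0.41, Axl between −2.15 and 0.32, Cd163 between −1.32 and −0.47 and Cd68 between −0.26 and 2.00. No paired analysis was possible because each condition had 1 library, and for the same reason no replicate could be left out. Scores near the lowest printed value limit the members, since 65.2% of all control transcripts with a score of 0.1 had no counterpart after IL-4.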

Other observations

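2 further receptors of the list fell outside the rule for named genes and were chosen after their values were seen. Lrp1, a large endocytic receptor that takes part in uptake of apoptotic cells and of many plasma ligands, had 44 transcripts on its strand in control and 3 after IL-4. Its covered length was 11853 and 886 bp and its summed score times length 3609.4 and 220.7 bp, a centred log2 ratio of −4.15. By name its highest score was 1.2 and 0.4 (−1.21, rounding range −1.46 to −0.98). Itgb5, the integrin chain that pairs with the product of Itgav, showed 15 control transcripts but 1 IL-4 transcript, with 3489 and 301 covered bp and sums of 992.3 and 30.1 bp (−5.16). Its highest score by name was 0.4 and 0.1 (−1.62, rounding range −2.79 to −0.84). Both pointed the other way from Itgav, and the difference was not tested.

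The transcripts named Stab1 inside Nisch could be compared on their own. There were 10 in control, all with a counterpart, and 9 were lower and 1 was higher after IL-4, with a median log2 ratio of −1.0, not centred. Inside Stab1 the same median was −1.95 over 22 pairs. Tmem87b, downstream of Mertk on the same strand, went from 936.6 bp over 1522 covered bp to 641.0 bp over 1576, a centred log2 ratio of −0.66. Hnrnpul1, downstream of Axl, went from 735.7 bp over 2127 covered bp to 696.3 bp over 3298 (−0.20). Eif4a1, upstream of Cd68, went from 3788.8 bp over 2393 covered bp to 5370.4 bp over 2956 (0.39).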
